A study of Homo sapiens with 18 samples.

Results

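The genes of the eukaryotic translation initiation factors, with those of the kinases that phosphorylate eIF2 and of the proteins that bind eIF4E, were followed in 2 neuroblastoma lines exposed to 2 plant compounds. Members were the 56 symbols of the platform's probe annotation that start with EIF1 to EIF6, less 1 pseudogene, 1 divergent transcript and 1 Y-linked gene, which left 53 of 20045 annotated genes. Of these 53, 52 passed the filter on dim probes and were tested among 12975 genes; EIF5AL1, an EIF5A-like gene whose probe was detected on 1 array, was not. Of the 52, 50 were detected on all 18 arrays, whereas EIF1AD and EIF4E1B were detected on some of them. SK-N-SH and IMR-32 cells were kept for 24 h in withaferin A (WA) or withanone (WN), each at 1 µM, or in the solvent DMSO, their RNA was read on Illumina HumanHT-12 v4 beadchips, and each of the 6 groups held 3 biological replicates per the labels. WA and WN are withanolides, steroidal lactones of Withania somnifera, whose epoxide and hydroxyl groups sit at different positions. Both lines are established neuroblastoma cell lines, and IMR-32 is known for its amplified MYCN, which SK-N-SH lacks. One line of each kind was used, so a difference between the lines is not a difference between classes of tumour.

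Initiation begins when eIF2, a complex of 3 subunits, carries GTP and the initiator tRNA to the small ribosomal subunit, which eIF1, eIF1A, eIF3 and eIF5 help to prepare. The eIF4 factors bind the mRNA cap and unwind the leader, the ribosome scans to a start codon, and eIF5B joins the large subunit. Cells control this at 2 points: stress kinases phosphorylate the alpha subunit of eIF2 and thereby block its exchange factor eIF2B, the core of the integrated stress response that raises ATF4, and eIF4E-binding proteins, released from mTORC1 control, keep eIF4E from the cap. Both controls act on proteins, which these arrays do not measure. The values below are RNA levels on the log2 scale after background correction and quantile normalization, so a difference is relative to the other genes of an array, and levels of different probes are not set against each other.

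The arrays separated first by line, with 70.6% of the variance of the gene values on the first principal component. Of 10 adrenergic neuroblast markers at least 8 were detected on all arrays of every group, no Schwann cell marker of 4 was, and of the other lists CD14 (immune, 1 of 4) and EPCAM and KRT18 (epithelial, 2 of 3) were detected in SK-N-SH, and CD14 and CDH5 (endothelial, 1 of 2) in IMR-32 with WA. Mesenchymal markers numbered 5 to 6 of 6 in SK-N-SH and 3 to 4 of 6 in IMR-32. These markers also moved with WA. In SK-N-SH 6 of 9 measured neuroblast markers fell, among them CHGA (-2.88 ± 0.50), DBH (-2.16 ± 0.61) and DDC (-2.06 ± 0.54), beside 15.4% of all genes. The WA and DMSO arrays overlapped for DBH, DDC, GATA2 and HAND2 and did not for CHGA and PHOX2A. MYCN fell there too (-3.26 ± 0.36), while EPCAM (0.90 ± 0.20) and CD14 (0.82 ± 0.23) rose, beside 16.4% of all genes, and none of 6 mesenchymal markers passed. In IMR-32 2 neuroblast markers fell with WA, DBH (-2.80 ± 0.61) and ISL1 (-1.72 ± 0.20), 1 rose, TH (0.81 ± 0.26), and the mesenchymal SNAI2 rose (2.02 ± 0.36). TH was not detected on all DMSO arrays of IMR-32, which limits the reading of its size. The shares of all genes with WA in that line were 8.04% higher and 6.47% lower. With WN no marker passed in either line. These shifts stand beside every WA change below, and the part of such cells or states in them was not tested. MYCN was detected on all 3 arrays of each group except WA in SK-N-SH. The 6 WN arrays were dimmer, with a highest signal between 19100.5 and 21479.9 against 29825.6 to 37328.5 on the 12 others, so brightness and WN cannot be told apart. Over all genes, the first WA array of SK-N-SH moved less far from the DMSO mean than its replicates, with a slope of 0.48 on their mean against 1.09 and 1.10. The third WN array stood apart in the same way in SK-N-SH (0.37 against 0.83 and 0.80) and in IMR-32 (0.54 against 0.81 and 0.83). In bulk RNA, fewer cells that express a gene and less of its RNA per cell cannot be told apart.

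Withaferin A changed a minority of the initiation genes in each line, and withanone few. In SK-N-SH 13 of 52 passed an adjusted p of 0.05 (limma, Benjamini-Hochberg over all genes), 7 higher and 6 lower, while 31.9% of all genes passed, 16.4% higher and 15.4% lower. With the arrays of SK-N-SH alone in the fit 8 of these 13 no longer passed (EIF1B, EIF2A, EIF2D, EIF3J, EIF3K, EIF4A2, EIF4B and EIF5, adjusted p between 0.0505 and 0.0959), and EIF1, EIF2AK3, EIF2B5, EIF2S2 and EIF4E3 did. In IMR-32 6 passed, 3 higher and 3 lower, while 14.5% of all genes passed, 8.04% higher and 6.47% lower. Withanone gave 3 in IMR-32, all higher, beside 4.59% of all genes (2.40% higher and 2.19% lower), and 1 in SK-N-SH, higher, beside 1.83% of all genes (0.925% higher and 0.909% lower). The 3 arrays of each group did not overlap for 20 members with WA in SK-N-SH (35.8% of all genes) and 21 in IMR-32 (40.4% of all genes), and for 7 with WN in SK-N-SH (21.8% of all genes) and 22 in IMR-32 (31.5% of all genes). As shares of the 52, the 22 with WN in IMR-32, and by less the 20 with WA in SK-N-SH, lay above those of all genes. The members' shares that passed, 25% and 11.5% with WA and 5.77% and 1.92% with WN, lay near those of all genes or below them. Their median difference was 0.04 and -0.10 with WA in SK-N-SH and IMR-32 and 0.05 in each line with WN, and that of all genes 0.02 with WA in each line and between -0.02 and 0.00 with WN. In all, 17 of the 52 passed in at least 1 of these 4 comparisons and 35 in none. The share of all genes that passed in at least 1 was not counted, while 31.9% passed with WA in SK-N-SH alone. The differences of these 35 ran between -0.86 (EIF3CL) and 0.46 (EIF5A2) with WA in SK-N-SH and between -0.76 (EIF1AX) and 0.35 (EIF5A2) in IMR-32. With WN they ran between -0.39 (EIF4E) and 0.66 (EIF1AX) in SK-N-SH and between -0.61 (EIF1AD) and 1.16 (EIF3CL) in IMR-32. WA and WN share the DMSO arrays of their line, so their differences from DMSO are not independent of each other.

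**Figure D1:**
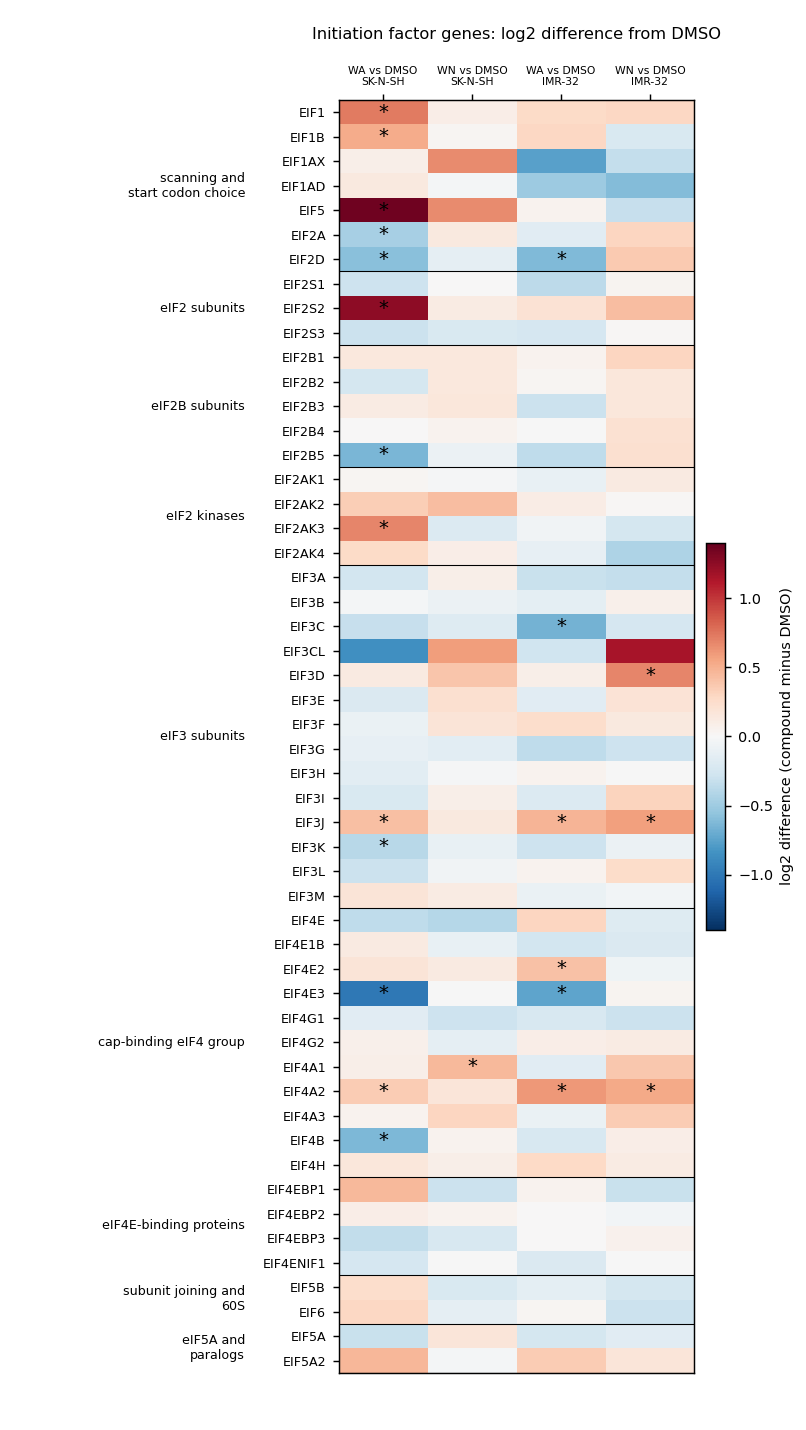
Log2 differences from DMSO for the 52 tested initiation genes (rows, by role) with WA and WN in SK-N-SH (left pair of columns) and IMR-32 (right pair), red where higher with the compound and blue where lower; an asterisk marks an adjusted p under 0.05. The 13 asterisks in the first column include EIF2S2 (1.25) and EIF4E3 (-1.0), and the second column holds 1, at EIF4A1 (0.45).

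The largest change with a narrow spread was that of EIF2S2, the beta subunit of eIF2, with WA in SK-N-SH. Its log2 intensity was 8.38, 8.50 and 8.42 on the WA arrays, 7.32, 7.22 and 7.36 on the WN arrays and 7.34, 7.08 and 7.14 on the DMSO arrays of SK-N-SH. Every WA array thus lay more than 1 log2 unit above every array of the other groups of that line, whose values overlapped. EIF2S2 rose 2.37-fold with WA (log2 1.25 ± 0.13, SE, n = 3 per group, 95% interval 0.98 to 1.52, adjusted p = 6.79e-06 by limma). In IMR-32 the arrays gave 7.75, 7.48 and 7.54 with WA, 7.61, 8.01 and 7.84 with WN and 7.42, 7.46 and 7.30 with DMSO. There the WN mean was the highest, with 2 of 3 WN arrays above all others, and neither difference from DMSO passed (WA 0.20 ± 0.13, adjusted p = 0.339; WN 0.43 ± 0.13, adjusted p = 0.065, and 0.0369 on the deposited log2 values). The WA effect was larger in SK-N-SH than in IMR-32 by 1.05 ± 0.18 (95% interval 0.66 to 1.43, adjusted p = 0.00356), and EIF2S2 was the 1 member of 52 for which this difference between lines passed, beside 6.66% of all genes (3.31% higher and 3.35% lower).

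The other eIF2 subunits did not move with EIF2S2. EIF2S1, the alpha subunit that carries the regulatory phosphorylation site, gave 8.42, 7.83 and 7.56 with WA, 8.39, 8.19 and 8.09 with WN and 8.26, 8.08 and 8.33 with DMSO in SK-N-SH. Its 3 WA arrays spanned the other groups, and the difference was -0.29 ± 0.20 (adjusted p = 0.306), or -0.53 with adjusted p = 0.0339 without the first WA array. In IMR-32 EIF2S1 stood at 7.65, 7.63 and 8.22 with WA, 8.37, 8.13 and 8.23 with WN and 8.23, 8.38 and 8.00 with DMSO, a WA difference of -0.37 ± 0.20 that did not pass. EIF2S3, the gamma subunit that binds GTP and the tRNA, gave 11.02, 11.10 and 11.32 with WA, 11.20, 11.24 and 11.25 with WN and 11.43, 11.50 and 11.41 with DMSO in SK-N-SH. Both compounds' arrays lay below all DMSO arrays there, and the WA difference of -0.30 ± 0.13 had an adjusted p of 0.0966. In IMR-32 its values were 10.67, 10.67 and 10.72 with WA, 10.71, 10.99 and 11.11 with WN and 10.98, 11.08 and 10.71 with DMSO (WA -0.24 ± 0.13, adjusted p = 0.262), and the groups overlapped.

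Among the genes grouped with scanning and start codon choice, 3 of 7 rose and 2 fell with WA in SK-N-SH. The shares of all genes there were 16.4% higher and 15.4% lower. Of the calls among the 7, only that of EIF1 also passed with the arrays of SK-N-SH alone in the fit. EIF1, which guards the choice of the start codon, gave 13.47, 13.82 and 13.62 with WA, 13.11, 12.99 and 12.89 with WN and 12.83, 13.07 and 12.82 with DMSO. The WA arrays lay above all others of the line, and EIF1 rose by 0.73 ± 0.12 (1.66-fold, adjusted p = 0.00035). In IMR-32 it stood at 13.45, 13.23 and 13.28 with WA, 13.31, 13.35 and 13.36 with WN and 12.99, 13.12 and 13.04 with DMSO. Both compounds' arrays lay above DMSO there, by 0.27 ± 0.12 with WA (adjusted p = 0.161) and 0.29 ± 0.12 with WN (adjusted p = 0.189), which did not pass. Its close paralog EIF1B gave 11.32, 11.51 and 11.16 with WA, 10.77, 10.95 and 10.76 with WN and 11.06, 10.76 and 10.59 with DMSO in SK-N-SH and rose by 0.52 ± 0.14 with WA (adjusted p = 0.00755). In IMR-32 EIF1B was at 11.99, 11.93 and 12.02 with WA, above the 11.47, 11.39 and 11.59 with WN and the 11.71, 11.59 and 11.79 with DMSO (WA 0.29 ± 0.14, adjusted p = 0.178).

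EIF2A and EIF2D, which can bring initiator tRNA to the ribosome without eIF2, were lower with WA. EIF2A gave 10.21, 10.51 and 10.15 with WA, 11.04, 10.99 and 10.64 with WN and 10.75, 10.89 and 10.63 with DMSO in SK-N-SH. It fell by 0.47 on the log2 scale (SE 0.14, adjusted p = 0.0173), with no overlap of the WA arrays and the others, and the call was lost without DMSO replicate 2 (-0.40) or WA replicate 3 (-0.40). In IMR-32 EIF2A stood at 10.50, 10.48 and 10.57 with WA, 10.88, 10.94 and 11.10 with WN and 10.52, 10.73 and 10.76 with DMSO, where the WN arrays were the ones apart and neither difference from DMSO passed (WA -0.15 ± 0.14, WN 0.30 ± 0.14). EIF2D gave 8.55, 8.75 and 8.44 with WA, 8.82, 9.07 and 9.24 with WN and 9.15, 8.82 and 9.52 with DMSO in SK-N-SH, and 8.46, 8.13 and 8.27 with WA, 9.26, 9.25 and 9.32 with WN and 8.88, 9.01 and 8.84 with DMSO in IMR-32. Every WA array lay below every other array of its line. EIF2D fell by 0.59 with WA in SK-N-SH (SE 0.17, adjusted p = 0.0128) and by 0.62 in IMR-32 (SE 0.17, adjusted p = 0.019). The first call was lost without DMSO replicate 3 (-0.41) or WA replicate 3 (-0.51), the second without DMSO replicate 2 (-0.57) or WA replicate 2 (-0.54).

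EIF5, the factor that activates the GTPase of eIF2, had the largest WA difference in SK-N-SH but on 1 probe of 4. That brightest probe gave 9.98, 11.52 and 11.45 with WA, 10.34, 10.39 and 10.13 with WN and 9.86, 10.37 and 8.64 with DMSO. The first WA array lay among the DMSO arrays, and the groups overlapped. The difference of 1.36 ± 0.41 passed (adjusted p = 0.0174), but the call was lost without DMSO replicate 3 (0.87), WA replicate 2 (1.09) or WA replicate 3 (1.12). The 3 dimmer EIF5 probes gave 0.23, 0.26 and 0.10, and the mean of the 4 probes 0.49 (adjusted p = 0.0569). In IMR-32 the bright probe stood at 10.93, 11.28 and 10.30 with WA, 10.70, 10.59 and 10.10 with WN and 10.70, 10.93 and 10.74 with DMSO, a WA difference of 0.05 ± 0.41. The other 2 genes of the group, EIF1AX (eIF1A) and the dim EIF1AD, passed in none of these comparisons. EIF1AD is counted here by its symbol, not for a known part in scanning. It was called lower in IMR-32 with the replicate number as a block, by -0.51 with WA (adjusted p = 0.0239) and -0.61 with WN (adjusted p = 0.0233). EIF1AX gave -0.76 ± 0.33 with WA in IMR-32 (adjusted p = 0.138, and 0.0266 with the arrays of that line alone) on arrays that spread from 8.57 to 9.43. Its second, dimmer probe overlapped there, with 6.27, 6.78 and 7.40 with WA and 6.47, 7.10 and 7.19 with DMSO.

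**Figure D2:**
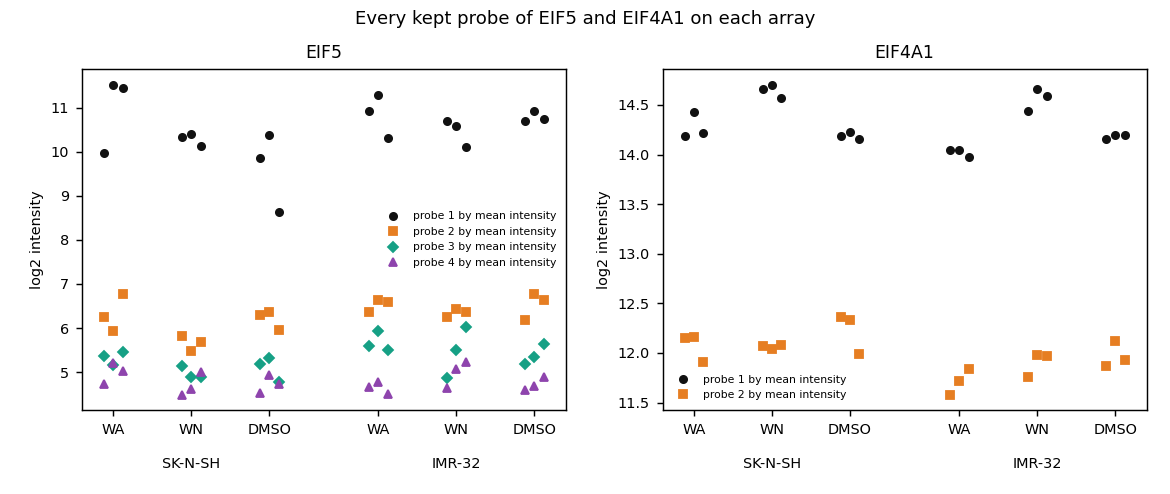
Log2 intensity of every kept probe of EIF5 (4 probes, left) and EIF4A1 (2 probes, right) on each of 18 arrays, in the groups WA, WN and DMSO of SK-N-SH and then of IMR-32; symbols mark the probes in order of mean intensity, and probes are not to be compared in height. The brightest EIF5 probe is high on 2 of 3 WA arrays of SK-N-SH, up to 11.52, and the brightest EIF4A1 probe is high on the WN arrays of both lines, whereas the second EIF4A1 probe is not.

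Of the 5 subunits of eIF2B, the exchange factor that reloads eIF2 with GTP, 1 fell with WA in SK-N-SH and none passed elsewhere against DMSO. The share of all genes that fell with WA in SK-N-SH was 15.4%. EIF2B5, the catalytic epsilon subunit, gave 8.65, 8.43 and 8.44 with WA, 9.07, 9.11 and 9.03 with WN and 9.18, 9.32 and 8.95 with DMSO in SK-N-SH. All WA arrays lay below all others, and EIF2B5 fell by 0.64 (SE 0.13, 1.56-fold lower, adjusted p = 0.00152). In IMR-32 it stood at 8.78, 8.79 and 9.10 with WA, 9.60, 9.33 and 9.49 with WN and 9.17, 9.25 and 9.31 with DMSO. The WA arrays were again the lowest, by -0.35 ± 0.13, which did not pass (adjusted p = 0.0845, and 0.044 on the deposited log2 values). EIF2B1 to EIF2B4 had no call with either compound against DMSO.

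The 4 eIF2 kinases are activated as proteins, and of their RNAs 1 rose with WA in SK-N-SH and none passed in the other comparisons with DMSO. The share of all genes that rose with WA in SK-N-SH was 16.4%. EIF2AK3 (PERK), the kinase of the endoplasmic reticulum, gave 7.00, 6.49 and 6.91 with WA, 5.95, 5.85 and 5.95 with WN and 6.04, 5.79 and 6.50 with DMSO in SK-N-SH. The lowest WA array just overlapped the highest DMSO array, and EIF2AK3 rose by 0.69 ± 0.20 (1.61-fold, adjusted p = 0.0139). It no longer passed without DMSO replicate 2 (0.53) or without WA replicate 3 (0.63). In IMR-32 the values were 6.24, 6.47 and 6.07 with WA, 6.00, 5.77 and 6.41 with WN and 6.47, 6.22 and 6.25 with DMSO, and the WA difference was -0.05 ± 0.20 (95% interval -0.47 to 0.37). Between lines, its WA effects differed by 0.74 ± 0.28, which did not pass (adjusted p = 0.123).

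EIF2AK1 (HRI), the kinase that heme holds inactive, gave 12.50, 12.73 and 12.68 with WA, 12.70, 12.60 and 12.46 with WN and 12.64, 12.72 and 12.46 with DMSO in SK-N-SH, a WA difference of 0.03 ± 0.13 (95% interval -0.23 to 0.30). In IMR-32 it stood at 11.83, 11.72 and 11.61 with WA, 11.78, 11.98 and 12.09 with WN and 11.88, 11.76 and 11.83 with DMSO, a WA difference of -0.11 ± 0.13 (95% interval -0.37 to 0.16). The groups overlapped in both lines. EIF2AK2 (PKR), the sensor of double-stranded RNA, gave 9.21, 10.48 and 10.54 with WA, 10.26, 9.98 and 10.25 with WN and 9.94, 10.15 and 9.10 with DMSO in SK-N-SH. Its first WA array lay far below the others, and the difference of 0.35 ± 0.30 (adjusted p = 0.407) became 0.78 with adjusted p = 0.0157 without that array. In IMR-32 EIF2AK2 was at 9.26, 9.54 and 8.99 with WA, 9.19, 9.23 and 9.09 with WN and 9.09, 9.15 and 9.21 with DMSO (WA 0.11 ± 0.30), with overlap. EIF2AK4 (GCN2), the sensor of uncharged tRNA, gave 8.08, 8.46 and 8.92 with WA, 8.34, 8.01 and 8.56 with WN and 7.87, 8.45 and 8.32 with DMSO in SK-N-SH (WA 0.27 ± 0.22, adjusted p = 0.369). In IMR-32 it was at 7.95, 8.44 and 7.95 with WA, 7.66, 7.69 and 8.05 with WN and 8.18, 8.20 and 8.30 with DMSO (WA -0.11 ± 0.22, WN -0.43 ± 0.22, adjusted p = 0.283), where the WN arrays lay below DMSO without passing.

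Of the 14 genes of eIF3, the large scaffold on the small ribosomal subunit, 1 rose and 1 fell with WA in each line, and 2 rose with WN in IMR-32. The shares of all genes with WA were 16.4% higher and 15.4% lower in SK-N-SH and 8.04% and 6.47% in IMR-32. With WN in IMR-32, 2.40% of all genes rose. EIF3J, a loosely bound subunit at the mRNA channel, gave 9.29, 9.60 and 9.32 with WA, 9.08, 9.03 and 9.26 with WN and 9.13, 8.80 and 9.04 with DMSO in SK-N-SH, and 10.38, 10.16 and 10.22 with WA, 10.18, 10.41 and 10.43 with WN and 9.75, 9.71 and 9.85 with DMSO in IMR-32. In SK-N-SH the WA arrays stood apart from both other groups, whereas in IMR-32 the arrays of both compounds stood above DMSO. EIF3J rose with WA by 0.42 ± 0.13 in SK-N-SH (adjusted p = 0.0237) and by 0.48 ± 0.13 in IMR-32 (adjusted p = 0.0213), and with WN by 0.57 ± 0.13 in IMR-32 (adjusted p = 0.0238). Each of these calls was lost in some fits with 1 array less, with differences between 0.32 and 0.65 over all settings tried.

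EIF3D, the subunit that can itself bind the cap, rose with WN in IMR-32. Its values there were 11.55, 11.67 and 11.78 with WA, 12.15, 12.38 and 12.28 with WN and 11.54, 11.62 and 11.59 with DMSO, so the WN arrays stood apart from the rest. The WN difference was 0.69 ± 0.12 (1.61-fold, adjusted p = 0.00652) and passed in all 26 other settings tried. In SK-N-SH EIF3D gave 12.07, 12.12 and 11.91 with WA, 12.15, 12.36 and 12.37 with WN and 11.88, 11.87 and 11.98 with DMSO. The WN arrays again were above all DMSO arrays, by 0.38 ± 0.12 (adjusted p = 0.102, and 0.0257 on the deposited log2 values). The dimmer WN arrays move with these WN differences, and the part of brightness in them was not tested.

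EIF3C, a core subunit, fell with WA in IMR-32, where it gave 5.82, 5.80 and 5.86 with WA, 6.02, 6.21 and 6.52 with WN and 6.58, 6.47 and 6.41 with DMSO. The WA arrays were the lowest, and the difference was -0.66 ± 0.16 (adjusted p = 0.00992). In SK-N-SH it stood at 6.25, 6.22 and 6.57 with WA, 6.59, 6.38 and 6.48 with WN and 6.90, 6.76 and 6.35 with DMSO, with overlap (WA -0.32 ± 0.16, adjusted p = 0.133). EIF3C and EIF3CL are near-identical copies whose probes may not tell them apart, and the WA difference of EIF3CL was -0.86 ± 0.47 in SK-N-SH and -0.28 ± 0.47 in IMR-32, so the gene behind the fall is uncertain. EIF3K, a small peripheral subunit, gave 12.42, 12.12 and 11.98 with WA, 12.38, 12.55 and 12.45 with WN and 12.67, 12.54 and 12.48 with DMSO in SK-N-SH. The WA arrays lay below DMSO, and EIF3K fell by 0.39 (SE 0.13, adjusted p = 0.0338), a call lost in 6 of 27 other settings. In IMR-32 its values were 11.86, 11.70 and 11.79 with WA, 12.03, 12.05 and 11.90 with WN and 12.28, 11.92 and 12.03 with DMSO (WA -0.29 ± 0.13, adjusted p = 0.167). The remaining eIF3 genes had no call against DMSO.

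In the group that binds the cap and unwinds the leader, EIF4E3 and EIF4A2 changed with WA in both lines, in opposite directions. EIF4E3, a member of the eIF4E family that lacks a conserved cap-stacking residue, gave 6.51, 6.10 and 6.54 with WA, 7.80, 7.44 and 6.90 with WN and 7.67, 7.42 and 7.07 with DMSO in SK-N-SH, and 9.15, 8.95 and 9.09 with WA, 9.70, 9.87 and 9.94 with WN and 9.77, 9.83 and 9.80 with DMSO in IMR-32. In both lines every WA array lay below all others, and the WN and DMSO arrays overlapped. EIF4E3 fell by 1.00 with WA in SK-N-SH (SE 0.20, 2.00-fold lower, adjusted p = 0.00126) and by 0.73 in IMR-32 (SE 0.20, 1.66-fold lower, adjusted p = 0.0204), and its second probe gave -0.92 and -0.62. The IMR-32 call was lost in 4 fits with 1 array less (-0.68 to -0.75, adjusted p up to 0.0805). With WN the differences were -0.00 ± 0.20 in SK-N-SH and 0.04 ± 0.20 in IMR-32.

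EIF4A2, a helicase that unwinds mRNA leaders, gave 12.96, 12.93 and 12.73 with WA, 12.81, 12.65 and 12.60 with WN and 12.55, 12.43 and 12.56 with DMSO in SK-N-SH, and 12.93, 12.73 and 13.00 with WA, 12.73, 12.72 and 12.99 with WN and 12.30, 12.25 and 12.30 with DMSO in IMR-32. The DMSO arrays were the lowest in each line. EIF4A2 rose with WA by 0.36 ± 0.12 in SK-N-SH (adjusted p = 0.0346, lost in 6 of 27 other settings) and by 0.60 ± 0.12 in IMR-32 (1.52-fold, adjusted p = 0.00352), and with WN by 0.53 ± 0.12 in IMR-32 (adjusted p = 0.0235, lost in 5 of 26). Its paralog EIF4A1 gave 14.19, 14.43 and 14.21 with WA, 14.66, 14.70 and 14.56 with WN and 14.19, 14.23 and 14.16 with DMSO in SK-N-SH, and 14.05, 14.04 and 13.97 with WA, 14.44, 14.66 and 14.59 with WN and 14.16, 14.20 and 14.20 with DMSO in IMR-32. There the WN arrays were apart and above the rest in both lines. EIF4A1 rose with WN by 0.45 ± 0.11 in SK-N-SH (adjusted p = 0.0451) and gave 0.38 ± 0.11 in IMR-32 (adjusted p = 0.057), but its second probe gave -0.17 and -0.08, and the SK-N-SH call was lost in 15 of 26 other settings.

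EIF4B, a cofactor of the helicase, fell with WA in SK-N-SH. It gave 11.64, 11.38 and 11.57 with WA, 12.51, 12.29 and 11.83 with WN and 12.11, 12.41 and 11.96 with DMSO, with the WA arrays below all others (-0.63 ± 0.17, adjusted p = 0.00802). In IMR-32 it stood at 11.98, 11.80 and 11.74 with WA, 12.24, 12.26 and 11.99 with WN and 12.13, 12.08 and 12.01 with DMSO (WA -0.23 ± 0.17, adjusted p = 0.414). EIF4E2, which binds the cap of repressed mRNAs, was at 11.05, 10.84 and 11.04 with WA, 10.57, 10.52 and 10.44 with WN and 10.63, 10.51 and 10.57 with DMSO in IMR-32. The WA arrays stood above the rest, and EIF4E2 rose by 0.41 ± 0.11 (adjusted p = 0.019, lost in 4 fits with 1 array less). In SK-N-SH EIF4E2 gave 11.04, 11.06 and 11.15 with WA, 10.93, 11.06 and 11.11 with WN and 10.84, 10.99 and 10.90 with DMSO (WA 0.18 ± 0.11, adjusted p = 0.237). EIF4E, the main cap-binding factor, did not pass with WA (-0.35 ± 0.22 in SK-N-SH, 0.30 ± 0.22 in IMR-32), nor did the scaffold EIF4G1 (-0.16 ± 0.15 and -0.23 ± 0.15).

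**Figure D3:**
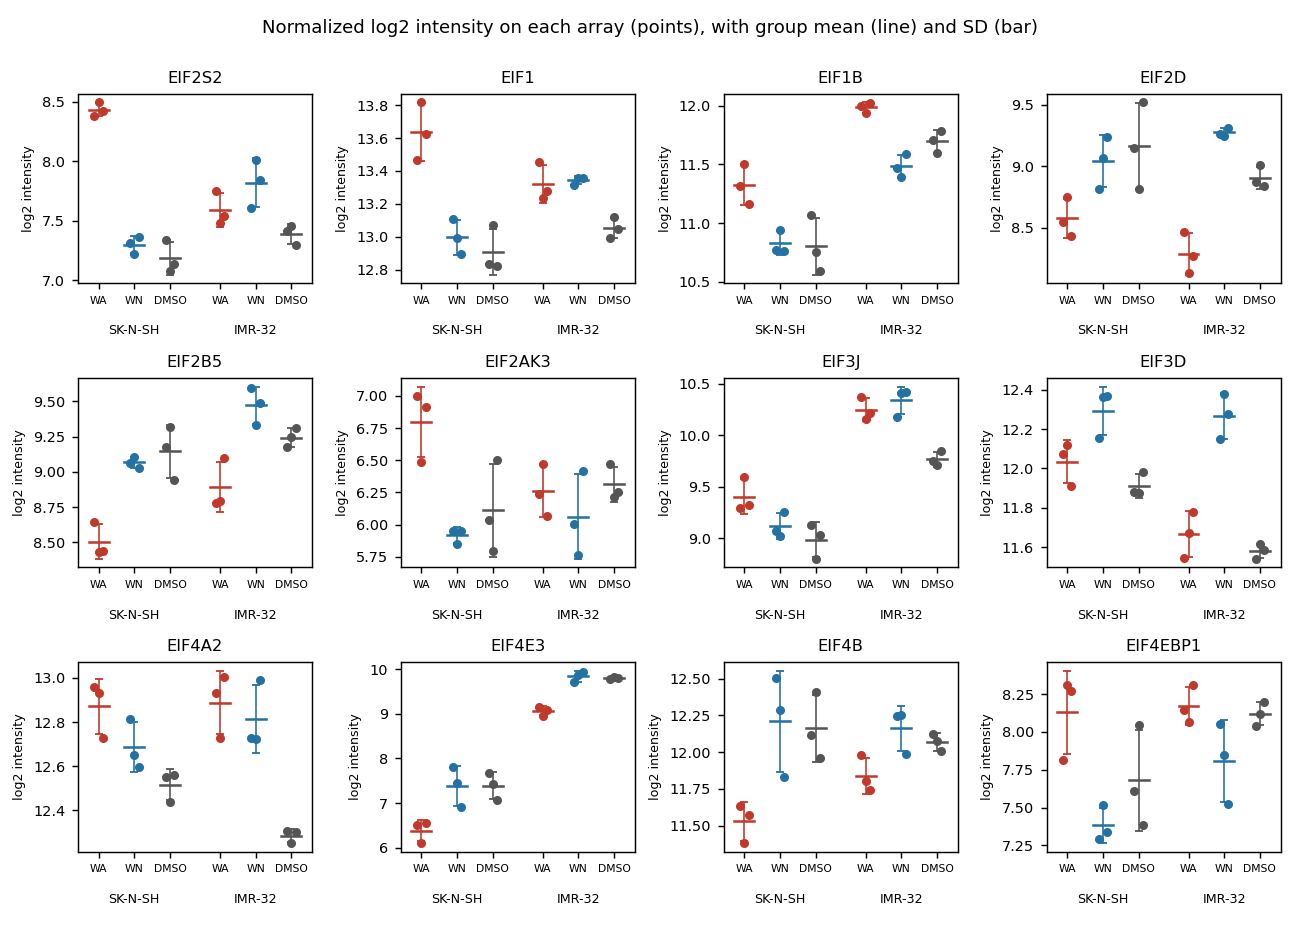
Log2 intensity of 12 initiation genes on each array (points), with the mean (line) and SD (bar) of each group of 3, in the order WA, WN and DMSO for SK-N-SH and then IMR-32; each panel has its own axis. EIF2S2 stands at 8.38 to 8.50 on the WA arrays of SK-N-SH, and EIF4E3 is lower on the WA arrays of both lines.

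Of the genes of eIF4E-binding proteins, none passed against DMSO. EIF4EBP1, the best known mTORC1 substrate among them, gave 7.81, 8.31 and 8.27 with WA, 7.29, 7.51 and 7.34 with WN and 7.61, 8.04 and 7.39 with DMSO in SK-N-SH. The first WA array lay within the DMSO range, and the WA difference of 0.45 ± 0.18 did not pass (adjusted p = 0.0678), although it did with the replicate number as a block (adjusted p = 0.045), without WA replicate 1 (0.61) and without DMSO replicate 2 (0.63). In IMR-32 EIF4EBP1 was at 8.15, 8.06 and 8.31 with WA, 8.05, 7.85 and 7.52 with WN and 8.04, 8.12 and 8.20 with DMSO (WA 0.05 ± 0.18). EIF4EBP2 gave 9.09, 9.16 and 9.10 with WA, 9.40, 9.22 and 8.62 with WN and 9.09, 9.36 and 8.63 with DMSO in SK-N-SH, and 9.74, 9.59 and 9.83 with WA, 9.85, 9.68 and 9.49 with WN and 9.78, 9.76 and 9.60 with DMSO in IMR-32. The groups overlapped in both lines, with WA differences of 0.09 ± 0.20 (95% interval -0.32 to 0.50) and 0.01 ± 0.20 (95% interval -0.41 to 0.42). EIF4EBP3 gave 5.24, 5.72 and 5.60 with WA, 5.71, 6.00 and 5.24 with WN and 5.81, 5.67 and 6.13 with DMSO in SK-N-SH (WA -0.35 ± 0.19, adjusted p = 0.184), and 6.28, 6.08 and 6.59 with WA, 6.44, 6.30 and 6.38 with WN and 6.24, 6.28 and 6.42 with DMSO in IMR-32 (WA 0.00 ± 0.19), with overlap throughout. EIF4ENIF1, the eIF4E transporter, had no call against DMSO, nor did EIF5B and EIF6 (subunit joining and the control of free large subunits) or EIF5A. EIF5A2, the second eIF5A gene, gave 0.46 ± 0.18 with WA in SK-N-SH (adjusted p = 0.0563), which passed with the replicate block (adjusted p = 0.012).

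With WA, 4 members passed in both lines, each in the same direction: EIF3J and EIF4A2 rose, EIF2D and EIF4E3 fell. They make up 4 of the 6 calls in IMR-32 and 4 of the 13 in SK-N-SH. The share of all genes that passed in both lines was not counted, so this overlap is not read as a trait of these members. Their promoters are shown because these are the members that moved in both lines; each is the RefSeq window (GRCh38.p14) of 250 bases before to 50 bases from the annotated start, 5′ to 3′ on the strand of the gene. Capitals mark matches to 4 motifs searched on both strands: TGATGNAA (the composite element of ATF4 and C/EBP factors), TGACNNNGC (the core of the antioxidant response element), GAANNTTC (a heat shock element core) and CACGTG (an E-box), with no overlap between the matches shown. The EIF3J window is chr15:44536897-44537196 (plus strand), that of EIF4A2 chr3:186783327-186783626 (plus strand), that of EIF2D chr1:206612416-206612715 (minus strand), and that of EIF4E3, the 1 of its 3 annotated starts with a match, chr3:71729069-71729368 (minus strand).
EIF3J: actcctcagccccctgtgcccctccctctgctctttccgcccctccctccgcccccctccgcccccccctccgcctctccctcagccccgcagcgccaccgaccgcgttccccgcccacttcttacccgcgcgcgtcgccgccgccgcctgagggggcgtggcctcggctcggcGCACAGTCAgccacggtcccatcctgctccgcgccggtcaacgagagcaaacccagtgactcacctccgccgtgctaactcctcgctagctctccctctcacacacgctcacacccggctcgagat
EIF4A2: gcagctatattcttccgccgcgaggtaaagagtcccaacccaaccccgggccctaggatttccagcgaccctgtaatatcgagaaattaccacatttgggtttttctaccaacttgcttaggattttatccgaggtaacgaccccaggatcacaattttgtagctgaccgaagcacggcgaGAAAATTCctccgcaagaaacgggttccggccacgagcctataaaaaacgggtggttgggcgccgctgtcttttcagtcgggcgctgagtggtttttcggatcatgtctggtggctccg
EIF2D: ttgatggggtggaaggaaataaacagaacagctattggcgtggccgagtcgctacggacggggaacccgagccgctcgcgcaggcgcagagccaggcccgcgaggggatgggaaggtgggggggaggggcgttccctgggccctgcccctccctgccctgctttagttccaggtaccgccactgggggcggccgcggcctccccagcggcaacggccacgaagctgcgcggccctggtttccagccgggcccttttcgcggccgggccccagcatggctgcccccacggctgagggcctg
EIF4E3: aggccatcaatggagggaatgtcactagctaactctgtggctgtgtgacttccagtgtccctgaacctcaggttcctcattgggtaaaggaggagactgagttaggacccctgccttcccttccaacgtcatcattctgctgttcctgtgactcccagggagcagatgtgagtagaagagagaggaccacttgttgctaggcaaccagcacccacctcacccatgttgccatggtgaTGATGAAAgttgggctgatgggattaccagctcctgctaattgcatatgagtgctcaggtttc

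Counted from the annotated start, the EIF3J window held TGACNNNGC at -76 to -68, the EIF4A2 window GAANNTTC at -69 to -62 and the EIF4E3 window TGATGNAA at -13 to -6, while these letters are not in the EIF2D window. Of 53 members 44 had at least 1 window in the RefSeq table, 58 windows in all. TGATGNAA was present in 1 of the 58 and in 3.62% of all 35116 windows of the same length, TGACNNNGC in 13 (22.4%) and in 13.3% of all, GAANNTTC in 2 (3.45%) and in 6.77%, and CACGTG in 12 (20.7%) and in 7.26%. A match describes these letters and not a bound site.

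The line comparison of the WA effect is shown for all members in the plot of SK-N-SH against IMR-32 differences. Of the 9 calls with WA in SK-N-SH that did not pass in IMR-32, EIF2S2 alone also passed the test of the difference between lines. For EIF1 the difference between lines was 0.46 ± 0.17 (adjusted p = 0.124, and 0.0498 on the deposited log2 values), for EIF5 1.31 ± 0.57 (adjusted p = 0.181) and for EIF4B -0.40 ± 0.23 (adjusted p = 0.324). The WN effect differed between lines for 0 of 52 members and 0% of all genes by limma, and 2 members, EIF1AX and EIF3J, had an unadjusted p under 0.05. On the second EIF1AX probe the WN and DMSO arrays overlapped in both lines. It gave 6.57, 6.52 and 6.12 with WN and 6.70, 6.82 and 6.15 with DMSO in SK-N-SH. In IMR-32 it gave 6.83, 6.68 and 6.90 with WN and 6.47, 7.10 and 7.19 with DMSO.

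**Figure D4:**
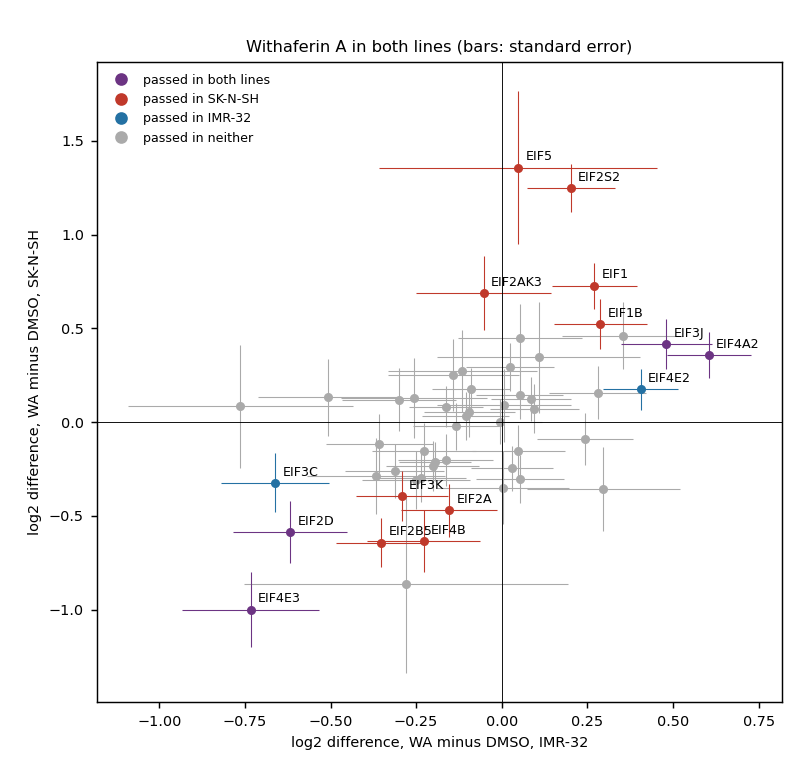
WA minus DMSO in SK-N-SH (vertical axis) against IMR-32 (horizontal axis) for the 52 tested initiation genes, log2 differences with standard errors as bars; colour shows the lines in which a gene passed an adjusted p of 0.05. EIF2S2 lies at 1.25 and 0.20, and the 4 genes that passed in both lines lie at the upper right and at the lower left.

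Withaferin A and withanone were compared directly at the same dose and time in each line, 1 pair of compounds, with p adjusted over all genes. The WN arrays were the dimmer ones, so compound and array brightness cannot be told apart in any WA minus WN difference. In SK-N-SH 18 of 52 members differed, 7 higher and 11 lower with WA (38.3% of all genes, 20.7% higher and 17.7% lower), and in IMR-32 11 did, 2 higher and 9 lower (23.7% of all genes, 12.6% higher and 11.2% lower). The arrays of the compounds did not overlap for 22 members in each line, beside 42.9% of all genes in SK-N-SH and 43.4% in IMR-32. EIF2S2 was higher with WA than with WN in SK-N-SH by 1.14 ± 0.13 (adjusted p = 9.76e-06), but not in IMR-32 (-0.23 ± 0.13, 95% interval -0.50 to 0.04). EIF2AK3 was higher by 0.88 ± 0.20 in SK-N-SH (adjusted p = 0.00233), with all WA arrays above all WN arrays, and EIF4EBP1 by 0.75 ± 0.18 (adjusted p = 0.00385). EIF1 was higher with WA in SK-N-SH (0.64 ± 0.12, adjusted p = 0.00073), as was EIF1B in both lines (0.50 ± 0.14 in each), and EIF4E2 was higher with WA in IMR-32 (0.47 ± 0.11). EIF5A2 gave 0.49 ± 0.18 and EIF6 0.42 ± 0.13 in SK-N-SH, both past the threshold, though a second EIF6 probe gave 0.06. With the arrays of SK-N-SH alone in the fit 6 of the 18 differences in that line no longer passed (EIF2D, EIF3CL, EIF3E, EIF3I, EIF4A1 and EIF5A2, adjusted p between 0.0644 and 0.115).

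Lower with WA than with WN in both lines were EIF2D, EIF2A, EIF2B5, EIF4E3, EIF4A1, EIF3I and EIF3CL. EIF2D was lower by -0.46 ± 0.17 in SK-N-SH and -0.99 ± 0.17 in IMR-32 (adjusted p = 0.0361 and 0.000574), EIF2A by -0.61 ± 0.14 and -0.46 ± 0.14, and EIF2B5 by -0.56 ± 0.13 and -0.58 ± 0.13. EIF4E3 differed by -1.0 ± 0.20 and -0.77 ± 0.20, and EIF4A1 by -0.37 ± 0.11 and -0.54 ± 0.11, of which its second probe gave 0.01 and -0.19. EIF3I, a propeller-shaped subunit, was at 12.63 ± 0.06 with WA and 12.93 ± 0.05 with WN in SK-N-SH and at 12.05 ± 0.10 with WA and 12.55 ± 0.06 with WN in IMR-32 (SD, n = 3 each), differences of -0.29 ± 0.10 and -0.50 ± 0.10. The EIF3CL differences, -1.45 ± 0.47 and -1.44 ± 0.47, rested on scattered arrays, 8.89, 9.18 and 6.56 with WA against 9.97, 9.98 and 9.03 with WN in SK-N-SH, and that one shrank to -0.63 (adjusted p = 0.0993) without WA replicate 3. In SK-N-SH EIF4B (-0.68 ± 0.17), EIF5A (-0.48 ± 0.16), EIF3E (-0.43 ± 0.14) and EIF2B2 (-0.39 ± 0.12) were lower as well, and in IMR-32 EIF3D (-0.60 ± 0.12) and the exon junction helicase EIF4A3 (-0.46 ± 0.13). Both compounds' values for EIF3J and EIF4A2 were close in IMR-32, with WA minus WN of -0.09 (95% interval -0.37 to 0.19) and 0.07 (95% interval -0.18 to 0.33).

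**Figure D5:**
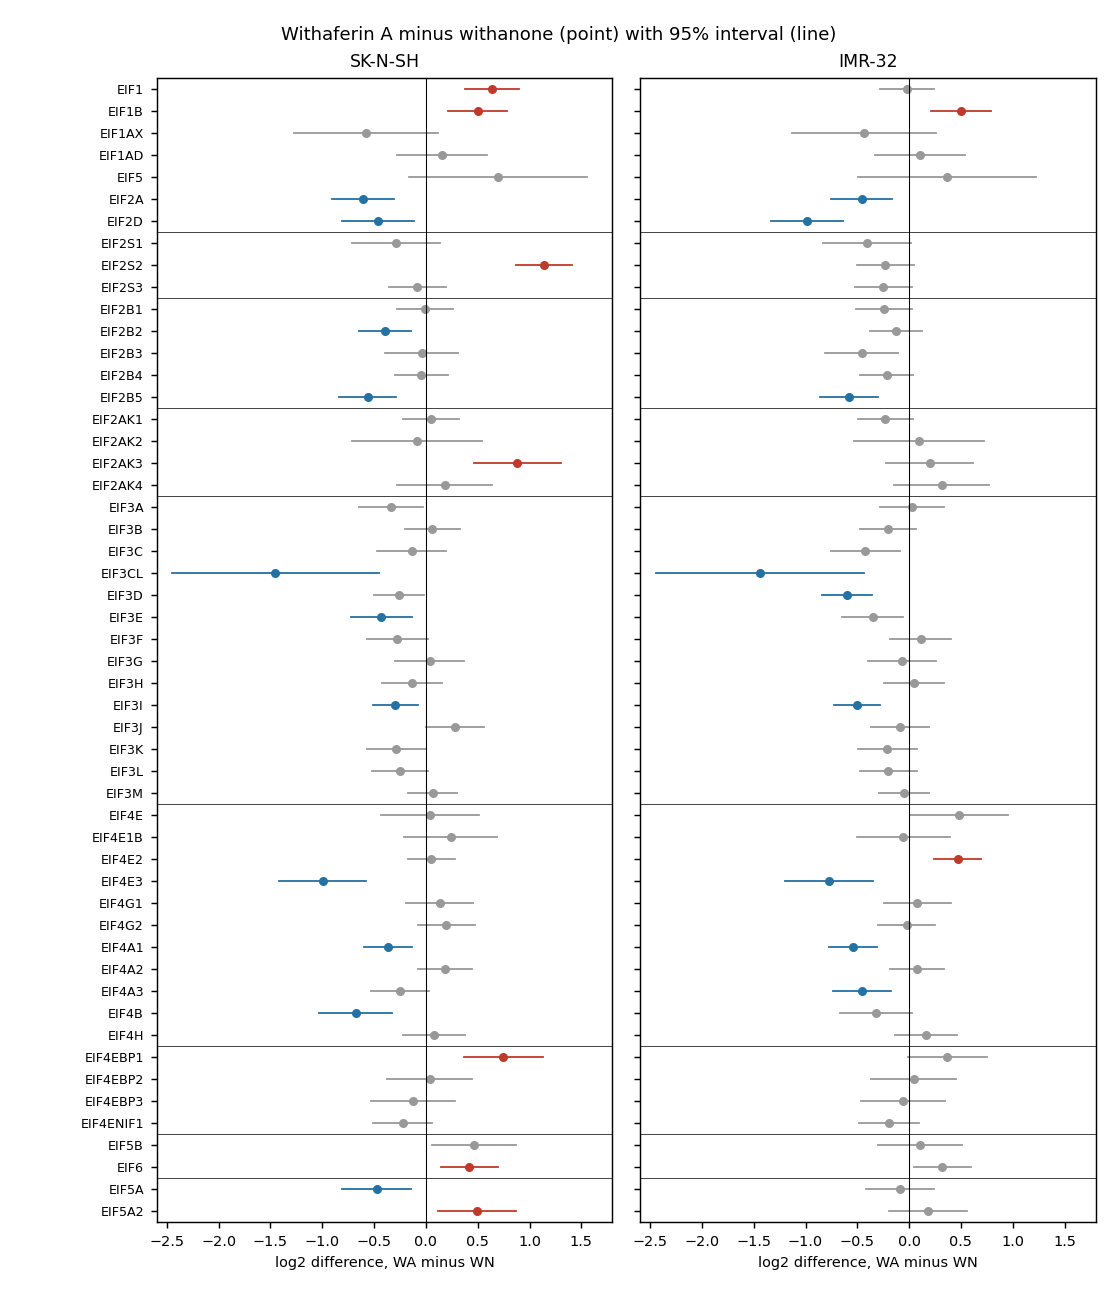
WA minus WN for the 52 tested initiation genes in SK-N-SH (left) and IMR-32 (right), log2 differences (points) with 95% intervals (lines); red marks genes past an adjusted p of 0.05 that were higher with WA, blue those lower, grey the others, and horizontal lines separate the roles. EIF2S2 is red in SK-N-SH at 1.14, and EIF4E3 and EIF2D are blue in both panels.

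With DMSO alone the lines differed for 22 of 52 members, 12 higher and 10 lower in SK-N-SH, beside 51.5% of all genes (27% higher and 24.5% lower), and their arrays did not overlap for 27 members (61.8% of all genes). EIF4E3 was at 7.38 ± 0.30 in SK-N-SH and 9.80 ± 0.03 in IMR-32 (SD, n = 3 each), 5.33-fold lower in SK-N-SH (log2 -2.41 ± 0.20, adjusted p = 3.06e-08), and its second probe gave -2.05. EIF5 (-1.16 ± 0.41, with the 3 other probes between -0.32 and 0.00), EIF5B (-1.01 ± 0.19), EIF2B3 (-0.94 ± 0.17) and EIF1B (-0.89 ± 0.14) were the next lowest. Of the 14 eIF3 genes 6 were higher in SK-N-SH, 1, EIF3J (-0.78 ± 0.13), was lower, and 7 did not pass. EIF6 (0.86 ± 0.13), which keeps free large subunits apart, EIF2AK1 (0.78 ± 0.13, although its second probe gave -0.15), EIF3F (0.74 ± 0.14), EIF3G (0.70 ± 0.16) and EIF4H (0.60 ± 0.14) were the highest of the called members. EIF2S2 did not pass between the lines (-0.20 ± 0.13, adjusted p = 0.2).

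The genes around these factors were read from lists on the same arrays. The lists were chosen with earlier results of these data known, so their counts describe these arrays and test nothing. Of 23 genes of the eIF2 and ATF4 axis, all measured, 15 rose and 1 fell with WA in SK-N-SH (median 1.34). With WA in IMR-32, 12 rose and none fell (median 0.53). The shares of all genes were 16.4% higher and 15.4% lower in SK-N-SH and 8.04% and 6.47% in IMR-32. With WN 0 rose and 1 fell in SK-N-SH, beside 1.83% of all genes that passed. None passed with WN in IMR-32, where 1 had an unadjusted p under 0.05, beside 4.59% of all genes that passed. The 3 largest rises with WA of each line were among those of 4 genes, which passed in both lines by limma. These were DDIT3 (CHOP, 3.51 ± 0.30 in SK-N-SH and 2.38 ± 0.30 in IMR-32), TRIB3 (3.38 ± 0.32 and 1.46 ± 0.32), the glutathione-degrading CHAC1 (3.27 ± 0.27 and 1.17 ± 0.27) and the eIF2 phosphatase subunit PPP1R15A (3.04 ± 0.33 and 1.92 ± 0.33). CHAC1 was dim with DMSO (means 4.57 and 4.29), which limits the reading of its size. DELE1, which relays mitochondrial stress to EIF2AK1, fell in SK-N-SH (-0.92 ± 0.15). ATF4, chosen here after its values were seen, rose by 1.34 ± 0.14 in SK-N-SH and gave 0.40 ± 0.14 in IMR-32 (adjusted p = 0.0688), and the lines differed by 0.93 ± 0.20 (adjusted p = 0.0117). Between lines, the signed WA difference was higher in SK-N-SH for 7 genes of this list and lower for 1, all past the threshold. Of all genes 3.31% were higher and 3.35% lower in this way. At the top were CEBPB (2.53 ± 0.40), STC2 (2.36 ± 0.47) and CHAC1 (2.10 ± 0.38). STC2 was dim in IMR-32 (means 4.75 with WA and 4.53 with DMSO), which limits the reading of its difference between lines. The 1 lower was DELE1 (-1.0 ± 0.21), which fell in SK-N-SH (-0.92) and hardly moved in IMR-32 (0.08). With WN in SK-N-SH the gene that fell was IMPACT, an inhibitor of EIF2AK4 (-1.10 ± 0.19, adjusted p = 0.0155). IMPACT was dim with WN there (mean 5.05, against 6.15 with DMSO), which limits the reading of its size.

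Of 21 genes of mTORC1 and cap control 19 were measured, and with WA 3 rose and 3 fell in SK-N-SH and 1 rose and 1 fell in IMR-32. These shares lay near or below the 31.9% and 14.5% of all genes that passed, so the genes named next are single genes and no result of the list. TSC2, a brake on mTORC1, fell in both lines (-1.02 ± 0.18 and -0.61 ± 0.18), and RHEB, its activator, rose in both (0.45 ± 0.11 and 0.44 ± 0.11). In SK-N-SH the eIF4E kinase MKNK2 (0.98 ± 0.26) and GIGYF2, a partner of EIF4E2 (0.38 ± 0.14), also rose, and MTOR (-0.49 ± 0.15) and RPS6KB1 (-0.49 ± 0.14) also fell. With WN none passed in SK-N-SH, where 2 had an unadjusted p under 0.05, and in IMR-32 PAIP2 rose (0.53 ± 0.12) and TSC1 fell (-0.54 ± 0.15). The shares of all genes that passed with WN were 1.83% in SK-N-SH and 4.59% in IMR-32. Of 23 other translation factors 22 were measured, with 1 rise and 4 falls with WA in SK-N-SH and 0 rises and 2 falls in IMR-32, shares below the 31.9% and 14.5% of all genes. EEF2K, the kinase that inhibits elongation factor 2, fell with both compounds in both lines, with WA by -0.83 ± 0.12 in SK-N-SH and -0.55 ± 0.12 in IMR-32, and with WN by -0.63 ± 0.12 and -0.47 ± 0.12. DHPS, which makes the hypusine of eIF5A, fell with WA in both lines (-0.54 ± 0.14 and -0.50 ± 0.14), and in SK-N-SH BZW2 fell (-0.58 ± 0.14) and the scanning helicase DHX29 rose (0.47 ± 0.15).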

How the data were processed

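RNA of 18 samples was hybridised to 1 array each. The deposited table holds, per the file headers, an intensity on a linear scale and a detection p-value per array for 47224 probes, without normalization by the authors. The deposited series matrix holds log2 values, quantile-normalized with limma per the submitters' processing notes. Its centring is unknown, each column had a median of 6.87, and each column followed its own array's signals with r of at least 0.995. On the 6 WN arrays 66.5% to 68.1% of detection p-values followed the signals, against 99.99% to 100% elsewhere, so they were rederived from each array's own signals (running median over 101 probes), after the data were seen. Normalization used neqc of limma 3.58.1 in R 4.3.3 (offset 16). A probe was kept at a detection p under 0.01 on at least 3 arrays, and the brightest kept probe stood for a gene. Of the probes analysed 30107 had 1 symbol, 8 several and 17107 none, the last 2 kinds being left out. All 18 arrays were fitted with 6 group means (lmFit, eBayes), with Benjamini-Hochberg adjustment over 12975 genes at 0.05, and intervals cover 95%. The number of arrays limits the precision. Same-numbered WA or WN and DMSO arrays deviated together in both lines (r 0.161 to 0.663), whereas 2 of 6 WA and WN pairs lay under 0.1. This is taken as possible pairing. The main fit did not use it, and the replicate block entered as an alternative. The scripts were tested on simulated data. Figures were drawn with matplotlib 3.10.9.

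Named members are those of the symbol rule, with values on every array for eIF2 subunits, kinases, EIF4EBP genes and up to 8 called members each way per comparison with DMSO, and up to 3 changed genes each way per pathway list. Members and lists were chosen with earlier results of these data known. The difference between lines in the WN effect was added after the data were seen.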

Additional observations from a re-analysis of the deposited data

Results flagged for a closer look

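EIF2S2 was singled out because its WA effect differed between the lines by the interaction test of the fit. WA minus DMSO was 1.25 in SK-N-SH and 0.20 in IMR-32, a difference of 1.05 (SE 0.18, 95% interval 0.66 to 1.43, adjusted p = 0.00356 by limma). It passed in all 26 other settings tried, with values between 0.74 and 1.13, and all 3 WA arrays of SK-N-SH lay above all DMSO arrays of that line, as did all 3 in IMR-32. EIF2S2 has 1 probe, so no second probe bears on it.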

How the results depend on the processing

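Of 75 member differences past the threshold 38 passed in every setting tried, none of the 75 changed sign, and 43 of 393 that did not pass did so in some setting. The median of all genes stayed between -0.05 and 0.04. For WA against DMSO in SK-N-SH the 13 calls became 5 with the arrays of 1 line in the fit, all 5 among the 13, and 8 to 17 with 1 array left out (8 without WA replicate 3, 17 without WA replicate 1). For WN against DMSO in IMR-32 the 3 calls became 6 on the deposited log2 values, without background correction or with the deposited detection p, and 5 without the filter, with probes detected on all arrays or with 1 line, and 1 to 4 with 1 array left out. For WN in SK-N-SH the 1 call became 2 on the deposited log2 values or without background correction, and 0 with the mean of kept probes or with 1 line, and 0 to 1 with 1 array left out. For the difference of the WA effect between lines, 1 became 2 on the deposited log2 values or without background correction, and 1 to 3 with 1 array left out (3 without SK-N-SH WA replicate 1). With 1 array left out WA in IMR-32 gave 2 to 7 (2 without DMSO replicate 2), WA against WN 11 to 19 in SK-N-SH and 7 to 12 in IMR-32, the lines with DMSO 18 to 25, and the WN difference between lines 0. The replicate block gave 15 and 7 calls with WA in SK-N-SH and IMR-32, 1 and 4 with WN, 19 and 13 for WA against WN, 1 and 0 for the differences between lines and 19 for the lines with DMSO, and against DMSO it changed no call beyond the 4 given above. A fit without the WN arrays, added after the data were seen, gave 11 and 6 calls with WA. The dim probes of EIF1AD and EIF4E1B limit what can be said of them. The causes of these shifts were not tested.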
